A study of Homo sapiens with 12 samples.

Results

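The IFITM cluster on the short arm of human chromosome 11 holds the genes IFITM5, IFITM2, IFITM1 and IFITM3. H3K27ac peaks in and within 20 kb of these genes were taken from 12 deposited peak lists, and each peak was assigned to the nearest of the 4 genes. The cluster runs over 22661 bp (chr11:298200-320860, GRCh38) and the window with its flanks over 62661 bp (chr11:278200-340860). It held 206 of the 1019229 peaks used in the 12 libraries, with 11 to 29 peaks per library. Of these, 74 were assigned to IFITM3, 48 to IFITM2, 45 to IFITM5 and 39 to IFITM1.

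H3K27ac is acetylation of lysine 27 of histone H3, a mark of active promoters and enhancers, and it was mapped by chromatin immunoprecipitation and sequencing with 1 antibody (Abcam ab4729). CFPAC1 and MiaPaCa2 are established lines of human pancreatic ductal adenocarcinoma. The 6 groups have 2 libraries each (n = 2 throughout): bulk CFPAC1 treated with human IFN-β at 1000 U/ml for 2 h, bulk CFPAC1 left untreated, bulk MiaPaCa2 treated in the same way, bulk MiaPaCa2 left untreated, IRF1 knockout clones of CFPAC1, and wild-type (WT) CFPAC1 clones. The knockout clones came from cells infected with lentiCRISPRv2, which carried Cas9 and a guide against IRF1, and the WT clones from cells infected with the empty vector. Both kinds of clone were obtained by dilution, and each clone library is 1 clone. The labels name no IFN-β treatment for the clones. They do not state whether the 2 bulk libraries of a group came from separate cultures, so a p-value measures only the spread between these libraries.

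The IFITM proteins are small membrane proteins that hinder the entry of enveloped viruses by altering the membranes at which viruses fuse. IFITM1 sits mainly at the cell surface, whereas IFITM2 and IFITM3 sit mainly in endosomes, and all 3 genes belong to the classical interferon-stimulated genes. Type I interferons such as IFN-β act through JAK kinases on a complex that includes STAT2 and IRF9 and binds the interferon-stimulated response element (ISRE). IRF1 is a transcription factor, itself induced by interferons, that can bind the same kind of element. IFITM5 differs from them: it is known from osteoblasts, where it takes part in bone mineralization, and it is not known as an interferon-stimulated gene.

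The promoters of IFITM1, IFITM3 and IFITM5 are shown because the results below turn on whether peaks reach the annotated starts. The sequences are from RefSeq (GRCh38.p14), 250 bases before the annotated start and the first 30 bases of the transcript, in the direction of the gene, with matches to the ISRE core in capitals.
IFITM1, chr11:313790-314069, plus strand: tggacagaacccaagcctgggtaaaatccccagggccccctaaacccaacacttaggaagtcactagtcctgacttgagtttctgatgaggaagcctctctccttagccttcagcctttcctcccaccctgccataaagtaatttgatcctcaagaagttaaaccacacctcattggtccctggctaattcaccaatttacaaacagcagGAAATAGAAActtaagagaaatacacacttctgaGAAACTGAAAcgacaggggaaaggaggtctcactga
IFITM3, chr11:320831-321110, minus strand: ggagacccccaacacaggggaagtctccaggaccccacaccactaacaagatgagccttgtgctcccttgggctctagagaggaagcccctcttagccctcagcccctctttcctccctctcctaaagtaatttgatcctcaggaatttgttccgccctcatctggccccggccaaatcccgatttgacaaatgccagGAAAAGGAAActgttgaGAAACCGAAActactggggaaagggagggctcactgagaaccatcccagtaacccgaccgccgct
IFITM5, chr11:299497-299776, minus strand: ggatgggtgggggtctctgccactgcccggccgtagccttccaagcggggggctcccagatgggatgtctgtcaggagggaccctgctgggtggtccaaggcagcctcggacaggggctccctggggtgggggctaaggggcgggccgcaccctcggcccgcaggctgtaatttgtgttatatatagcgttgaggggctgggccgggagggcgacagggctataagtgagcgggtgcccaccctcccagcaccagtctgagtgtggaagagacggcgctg

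The ISRE core was searched on both strands as GAAA, any 2 bases and GAAA again, from 250 bases before to 50 bases after each start. Of the 35116 promoters in the table, 3.57% held at least 1 match and 0.26% held 2 or more. IFITM1 had 2 matches, the first 40 to 31 bases before the start and the second spanning the start, from 6 bases before it to the 4th base of the transcript. IFITM3 also had 2, at 52 to 43 and at 35 to 26 bases before the start. IFITM5 had none in this window. A match is a description of letters and not a measured binding site. IFITM2 (chr11:307816-309395) is named here without a sequence.

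The peak lists held 59896 to 109861 peaks and covered 63.6 to 94.8 Mb per library, and the number of reads behind them is unknown. All 10 epithelial marker genes were covered in both libraries of each CFPAC1 group, at summed lengths of 97980 to 159354 bp. In the MiaPaCa2 libraries the summed length was 65721 to 75054 bp, with EPCAM, CDH1 and ESRP1 at 0. Of 7 immune cell markers, SPI1 was at 0 in both libraries of 3 CFPAC1 groups, and PTPRC, CD3E and LYZ in those of both MiaPaCa2 groups. The territory of IRF1, the targeted gene, had 8271 and 14027 bp under peaks in the knockout clones, against 5485 and 6341 bp in the WT clones, so H3K27ac does not check the edit.

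Every library had peaks over IFITM2, IFITM1 and IFITM3, and at IFITM1 and IFITM3 some of the same bases were covered each time. Of 28068 bases of the window covered in at least 1 library, 2383 were covered in all 12. These lay in 9 stretches. The longest was the 675 bp just before the start of IFITM1 (chr11:313226-313900), and the next was the 638 bp at its gene end (chr11:315188-315825). IFITM3 held a stretch of 113 bp at its gene end (chr11:319593-319705) and a stretch of 100 bp in its first part (chr11:320492-320591). A further 335 bp (chr11:326585-326919) lay upstream of IFITM3, within the gene of the antisense transcript IFITM3-AS1. No base inside IFITM2 or IFITM5 was covered in all 12.

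**Figure D1:**
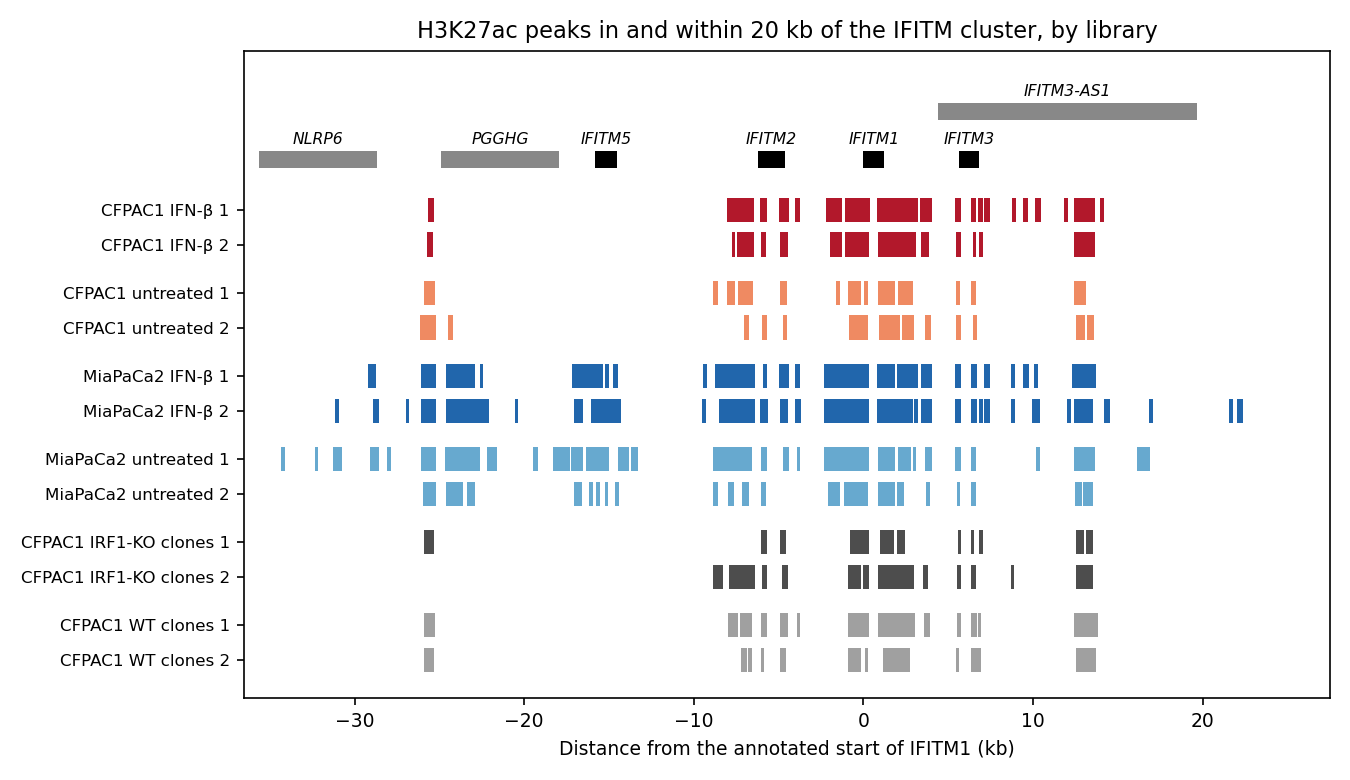
Peaks (bars) of each library along the IFITM cluster and its 20 kb flanks; the x axis is the distance from the annotated start of IFITM1 in kb, rows are libraries, and gene bodies are drawn above (black for the 4 IFITM genes). Peaks over IFITM2, IFITM1 and IFITM3 recur in all 12 libraries, and peaks over IFITM5 are present in the 4 MiaPaCa2 libraries and absent from the 8 CFPAC1 libraries.

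The middle of 3 of the 4 gene bodies lay under no peak in any library. IFITM1 had 449 uncovered bases, from 373 to 821 bases after its start, or 36.4% of the gene. IFITM3 had 541, from 498 to 1038 bases after its start, or 45.7%. IFITM2 had 116 at its lower end and 686 further in (chr11:308398-309083), together 50.8% of the gene. IFITM5 had none. IFITM1, IFITM2 and IFITM3 are close paralogs with long stretches of near-identical sequence, so the level of each is uncertain to the extent that reads fit more than 1 of them. How such reads were handled is not given in the sources used here, and the part of shared sequence in these gaps was not tested. Reads from IFITM3 and from the overlapping IFITM3-AS1 cannot be told apart either, since H3K27ac has no strand.

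For a comparison with all other genes, each gene was given a territory: its body and up to 5 kb on either side, no further than halfway to the next protein-coding gene. The 4 genes lie only 4403 to 8289 bp apart, so territories keep their peaks separate. Bases under peaks in the territory (covered bp) measure how far peaks extend and not how high they are. In such bulk libraries, fewer cells with the mark and less of the mark per cell cannot be told apart.

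IFITM1 was the most covered of the 4 and had covered bp in every library. Its mean was 5012.5 ± 24.75 bp in MiaPaCa2 with IFN-β, 4661.5 ± 368.4 in CFPAC1 with IFN-β, 4083.5 ± 760.14 in untreated MiaPaCa2, 3116.5 ± 92.63 in untreated CFPAC1, 3005.5 ± 570.64 in WT clones and 2805.0 ± 561.44 in IRF1 knockout clones (SD, n = 2 each). In this order, treated CFPAC1 overlaps untreated MiaPaCa2, and the 3 CFPAC1 groups without IFN-β overlap each other. IFITM2 kept a similar order at lower levels, with 3651.0 ± 9.9 bp in treated MiaPaCa2 at the top and 1417.0 ± 777.82 bp in untreated CFPAC1 at the bottom, and every neighbouring pair below the first overlapped. IFITM3 was least covered of the 3 interferon-stimulated members, with 2511.5 ± 84.15 bp in treated MiaPaCa2 at the top and 720.5 ± 177.48 bp in untreated CFPAC1 at the bottom, and all neighbouring pairs overlapped. IFITM5 was covered in the MiaPaCa2 libraries and was at 0 in the other 8.

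**Figure D2:**
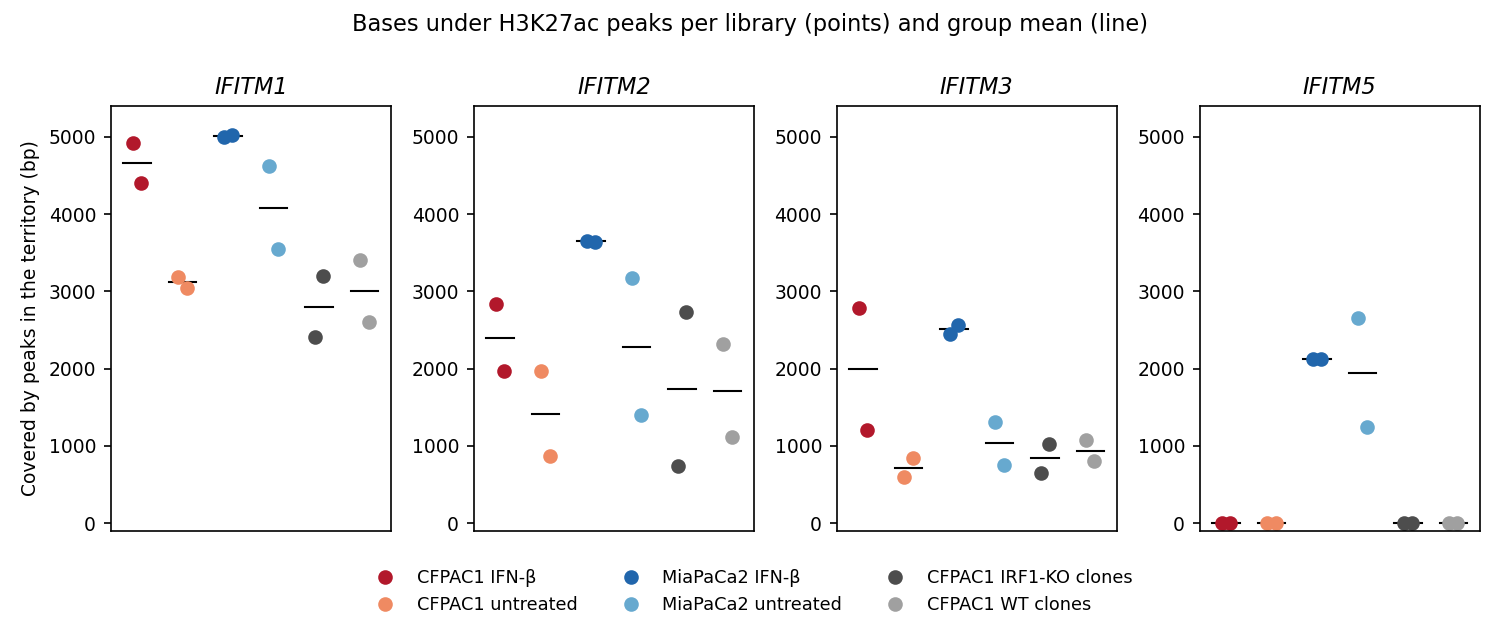
Covered bp in the territory of each gene (y axis), 1 point per library and a line at the group mean, for the 6 groups in the order of the legend. IFITM1, IFITM2 and IFITM3 have their highest means in the IFN-β groups of the 2 lines, and IFITM5 is at 0 in all 8 CFPAC1 libraries.

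Whether IFN-β changes acetylation at the cluster was first asked in CFPAC1. The territories of IFITM1 and IFITM3 had more covered bp in both treated libraries than in either untreated library, but neither passed the adjusted test. IFITM1 had 4922 and 4401 bp in treated CFPAC1, against 3182 and 3051 bp in untreated CFPAC1. IFITM3 had 2782 and 1209 bp in treated CFPAC1, against 595 and 846 bp in untreated CFPAC1. The treated libraries were higher without overlap for both genes, which was the case for 10.3% of the 16070 genes tested, while 40.2% were lower without overlap. The first treated library was well above the second for IFITM3. IFITM2 had 2834 and 1966 bp in treated CFPAC1, against 1967 and 867 bp in untreated CFPAC1, so the groups overlapped by 1 bp. IFITM5 was at 0 in all 4.

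The fitted differences in log2(covered bp + 500) were 0.67 ± 0.16 for IFITM1 (SE, limma adjusted p = 0.0911), 1.12 ± 0.29 for IFITM3 (limma adjusted p = 0.126) and 0.80 ± 0.48 for IFITM2 (limma adjusted p = 0.637). None of the 4 members was called at an adjusted p under 0.05 by limma, where 0.815% of all genes were called higher and 0.249% lower. Without centring the split of called genes was 81 higher and 65 lower, against 131 and 40 with it. At an unadjusted p under 0.05, IFITM1 (0.00199) and IFITM3 (0.00389) would pass, as did 1804 of the 16070 genes.

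**Figure D3:**
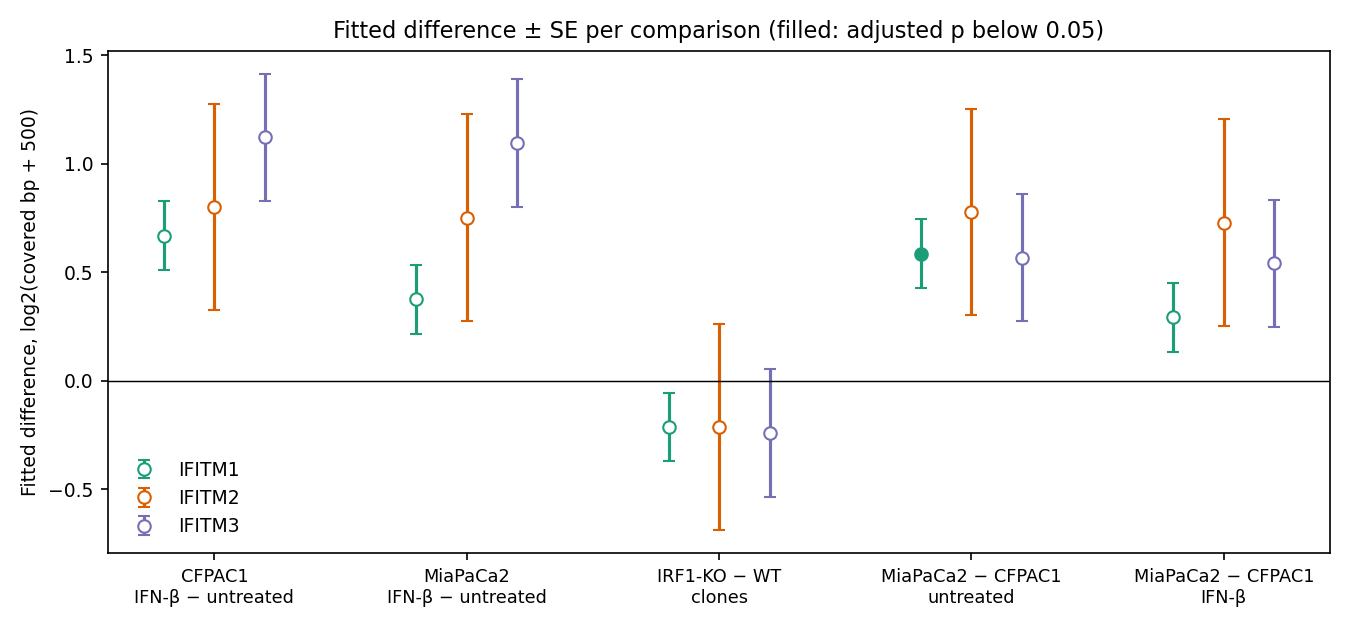
Fitted difference in log2(covered bp + 500) with its SE (y axis) for IFITM1, IFITM2 and IFITM3 in 5 comparisons, with the group named first minus the other; filled points have a limma adjusted p below 0.05. The IFN-β differences lie between 0.37 and 1.12 in both lines, the knockout differences lie between -0.24 and -0.21, and the filled point is IFITM1 in untreated MiaPaCa2 minus untreated CFPAC1.

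Over the whole window, peaks covered 12612 and 9208 bp in treated CFPAC1, against 7150 and 6927 bp in untreated CFPAC1. The groups did not overlap, and the mean was 3871.5 bp higher after IFN-β (exact two-sided permutation p = 0.33, the smallest that 2 against 2 libraries allow). Without the first treated library the difference was 2169.5 bp. Of 13813 bases covered in any of the 4 libraries, 11.63% were covered in both treated and in neither untreated library, where 3.22% of such bases were in the genome as a whole. Bases with the opposite pattern made up 1.85%, where the genome had 6.24%. The gained share was 17.69% in the territory of IFITM1, 14.71% in that of IFITM3 and 7.41% in that of IFITM2, and no base of these territories was lost.

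The bases gained at IFITM3 lay mainly in a pair of runs, 196 bp at its start (chr11:320884-321079) and 269 bp beyond its gene end (chr11:317415-317683), a run reaching over the border to the territory of IFITM1. In the 1 kb before the start, peaks covered 554 and 200 bp in treated CFPAC1, against 0 and 0 bp in untreated CFPAC1. The share of all genes that differ in this way over that 1 kb was not computed. The locus over the start was also the only one of 21 merged peak loci of the window that was gained (chr11:320804-321083), that is, held in both treated and in neither untreated library, and no locus was lost. Of all loci, 2.77% were gained and 6.43% lost. The count of 1 became 8 without the second treated library, 2 without the first untreated library and 3 without the second untreated library. The locus spans both ISRE cores of IFITM3. At IFITM1 the 1 kb before the start was covered over all 1000 bp in both treated libraries, against 786 and 857 bp in the untreated ones. Both untreated libraries thus held peaks before the IFITM1 start, though the first of them had none over the start itself, and neither held one in the 1 kb before the IFITM3 start.

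MiaPaCa2 gave the same question in a second line. IFITM1, IFITM2 and IFITM3 each had more covered bp in both treated than in either untreated library, which held for 9.1% of all genes (20.5% were lower without overlap), and again none passed the adjusted test. IFITM3 had 2452 and 2571 bp in treated MiaPaCa2, against 1317 and 753 bp in untreated MiaPaCa2. IFITM2 had 3658 and 3644 bp in treated MiaPaCa2, against 3170 and 1399 bp in untreated MiaPaCa2. IFITM1 had 4995 and 5030 bp in treated MiaPaCa2, against 4621 and 3546 bp in untreated MiaPaCa2. The treated libraries lay close together for all 3 genes, whereas the first untreated library was well above the second each time. IFITM5 had 2128 and 2132 bp in treated MiaPaCa2, against 2656 and 1246 bp in untreated MiaPaCa2, and the treated values lie inside the untreated range.

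The fitted differences were 1.10 ± 0.29 for IFITM3 (SE, limma adjusted p = 0.236), 0.75 ± 0.48 for IFITM2 (limma adjusted p = 0.89), 0.37 ± 0.16 for IFITM1 (limma adjusted p = 0.588) and 0.26 ± 0.25 for IFITM5 (limma adjusted p = 0.981). With limma 0 of the 4 were called, where 0.535% of all genes were called higher and 0.0622% lower. IFITM3 (0.00448) and IFITM1 (0.0403) had unadjusted p-values under 0.05, as did 1253 of the 16070 genes.

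The window as a whole had 18250 and 20536 bp under peaks in treated MiaPaCa2, against 20722 and 10281 bp in untreated MiaPaCa2. The groups overlapped (difference of means 3891.5 bp, exact two-sided permutation p = 1.0), and the difference was -1329 bp without the second untreated library and 9112 bp without the first. In both treated and neither untreated library, 27.66% of the covered bases in the territory of IFITM3 were held, 16.4% in that of IFITM2, 6.89% in that of IFITM1 and 4.47% in that of IFITM5, where the genome had 2.48%. Those of IFITM3 included 219 bp beyond its gene end (chr11:317438-317656), inside the run gained there in CFPAC1. The lost share was 0.45% for the window, where the genome had 2.7%.

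As in bulk CFPAC1, the 1 kb before the start of IFITM3 held no peak in the untreated bulk libraries. There peaks covered 333 and 516 bp in treated MiaPaCa2, against 0 and 0 bp in untreated MiaPaCa2. Here too the share of all genes that differ in this way was not computed. The gained loci were not at the same place, however. Of 34 loci, 3 were gained and 0 lost, where 2.3% of all loci were gained and 3.29% lost. Of the 3, 2 lay upstream of IFITM3 (chr11:321176-321508 and chr11:322753-322990) and 1 lay about midway between IFITM5 and IFITM2 (chr11:304527-304800). The 3 became 10 without the first treated and 7 without the first untreated library, and 6 loci were lost without the second untreated library. The locus over the ISRE cores of IFITM3 was held in 1 of the 2 treated MiaPaCa2 libraries. The 1 kb before the start of IFITM1 was covered over all 1000 bp in all 4 MiaPaCa2 libraries.

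The ISRE cores can be followed across all libraries. Both IFITM3 cores lay wholly under a peak in 2 of 2 treated and 0 of 2 untreated CFPAC1 libraries, in 1 of 2 treated and 0 of 2 untreated MiaPaCa2 libraries, and in 2 of 2 WT clones. In the knockout clones 1 of 2 covered the distal core and 0 of 2 the whole proximal one. The first knockout clone had 9 of the 10 bases of the proximal core under a peak. Both IFITM1 cores were covered in 2 of 2 treated and 1 of 2 untreated CFPAC1 libraries, in all 4 MiaPaCa2 libraries, and in 1 of 2 knockout and 1 of 2 WT clones. Coverage of these motifs was therefore present in some libraries without IFN-β.

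The response to IFN-β was compared between the lines directly. The difference of the differences, MiaPaCa2 minus CFPAC1, was -0.29 ± 0.22 for IFITM1, -0.05 ± 0.67 for IFITM2, -0.03 ± 0.42 for IFITM3 and 0.11 ± 0.35 for IFITM5 (SE, limma adjusted p 0.883 to 0.995). None of the 4 was called by limma, where 0.0311% of genes were called higher and 0.0249% lower. None had an unadjusted p under 0.05 either, which 1208 of the 16070 genes had. For IFITM2 the SE is close to the size of its fitted difference in either line, so a difference of that size between the lines was not detectable.

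The authors' fold enrichment of a peak compares its summit with the local background in its own library, and it was used here to rank peaks within each list. The peak before the start of IFITM1 stood in the top part of most lists. Its authors' fold was 48.4 and 20.3 in treated CFPAC1, at the 99.89th and 97.89th percentile of all peaks of the library, and 15.3 and 6.31 in untreated CFPAC1, at the 90.64th and 61.84th. It was 60.5 and 38.4 in treated MiaPaCa2 (99.74th and 97.33rd) and 45.4 and 26.2 in untreated MiaPaCa2 (99.5th and 96.9th). In the clones it was 7.52 and 15.0 with the knockout (61.86th and 94.56th) and 5.58 and 5.21 in WT (53.2nd and 44.57th). In the first knockout clone and the first WT clone the summit of this peak lay after the start, inside IFITM1 (chr11:314167 and chr11:314118). The peak was thus among the strongest few percent in all MiaPaCa2 and treated CFPAC1 lists, and near the middle of the WT clone lists.

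The peak at the gene end of IFITM1 had an authors' fold of 29.7 and 18.4 in treated CFPAC1 and 14.9 and 6.52 in untreated CFPAC1. In MiaPaCa2 it was 29.3 and 16.9 with IFN-β and 9.65 and 8.41 without. The narrow peaks inside IFITM3 ranked lower in treated CFPAC1 and in MiaPaCa2 than the one before the start of IFITM1. The one at its gene end was 200 to 363 bp wide, with an authors' fold of 4.67 to 16.4 at the 42.33rd to 84.9th percentile. The one in its first part was 217 to 596 bp wide, with an authors' fold of 5.61 to 17.3 at the 56.9th to 90.97th percentile. Lists of different length and depth cannot be set against each other by rank, so no test was made on these values.

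**Figure D4:**
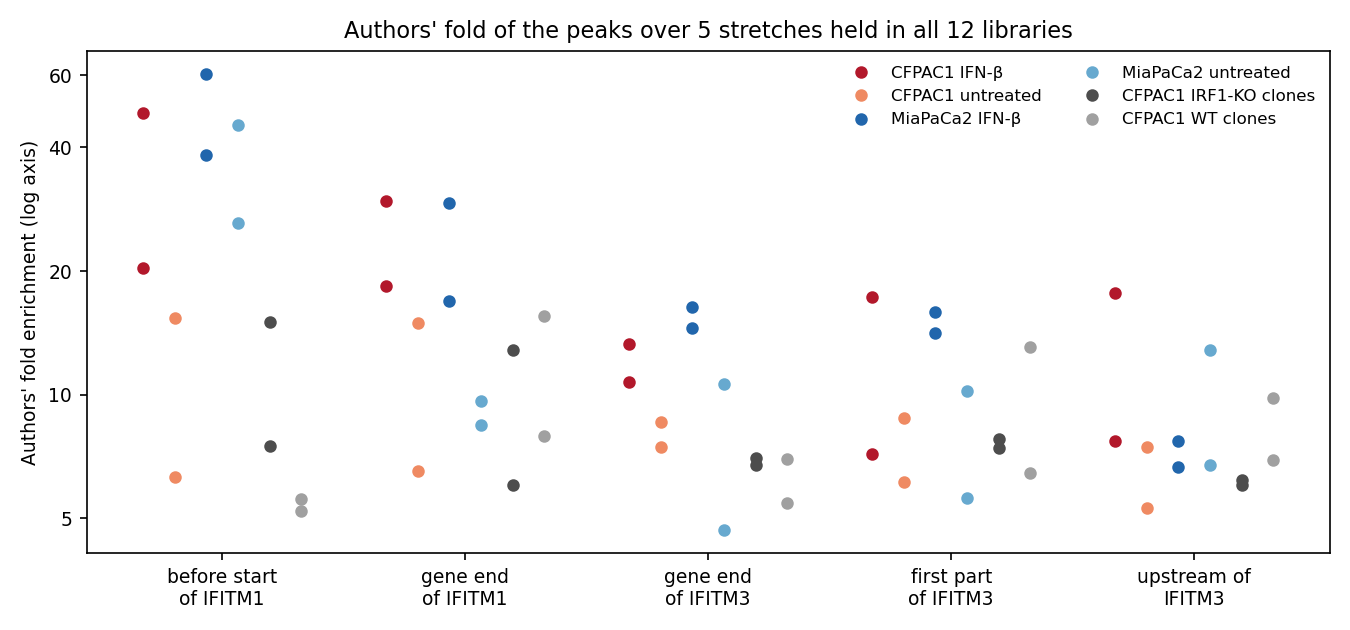
Authors' fold enrichment (y axis, log scale) of the peak over each of 5 stretches covered in all 12 libraries (x axis), 1 point per library, groups side by side in the order of the legend. The peak before the start of IFITM1 ranges widest, between 5.21 in a WT clone and 60.5 in a treated MiaPaCa2 library, and the peaks inside IFITM3 stay between 4.67 and 17.3.

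Whether IRF1 is needed for acetylation at the cluster was asked in the clones. The 3 covered members overlapped between knockout and WT clones, whereas 25.4% of all genes were higher and 12.7% lower without overlap. IFITM1 had 2408 and 3202 bp in knockout clones, against 3409 and 2602 bp in WT clones. IFITM2 had 747 and 2735 bp in knockout clones, against 2318 and 1112 bp in WT clones. IFITM3 had 654 and 1024 bp in knockout clones, against 1073 and 808 bp in WT clones. The spread between clones of a genotype was larger than the difference between the genotype means, and IFITM5 was at 0 in all 4 clones.

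The fitted differences were -0.21 ± 0.16 for IFITM1 (SE, limma adjusted p = 0.601), -0.21 ± 0.48 for IFITM2 (limma adjusted p = 0.879) and -0.24 ± 0.29 for IFITM3 (limma adjusted p = 0.771). For IFITM2 the sign of the fit is opposite to that of the plain means, 1741.0 bp in knockout clones and 1715.0 bp in WT clones. With limma 0 of the 4 members were called, where 0.666% of all genes were called higher and 0.572% lower. No member had an unadjusted p under 0.05, which 2331 of the 16070 genes had. Without centring the split of called genes was 115 higher and 26 lower, against 107 and 92 with it. These errors leave room for a decrease, so the values do not show that the clones are alike.

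Across the window the clones had 5306 and 7961 bp with the knockout, against 8920 and 6308 bp in WT (difference -980.5 bp, exact two-sided permutation p = 0.667). The difference was 347 bp without the first knockout clone and 325.5 bp without the first WT clone. It was -2308 bp without the second knockout and -2286.5 bp without the second WT clone. Leaving out the first clone of either genotype thus reversed its direction. None of 13 loci was gained or lost, where 3.36% of all loci were gained and 2.62% lost. Of the bases covered in any clone, 3.37% were held by both WT clones and neither knockout clone, where the genome had 3.27%. In the territory of IFITM3 this share was 7.13%, or 117 of 1642 bases, with a run of 90 bp over its start (chr11:320797-320886), and in those of IFITM1 and IFITM2 it was 0.0%. The opposite pattern made up 0.91% at IFITM3, where the genome had 3.29%. In the 1 kb before the start of IFITM3, peaks covered 201 and 0 bp in knockout clones, against 136 and 143 bp in WT clones.

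The lines themselves differed most at IFITM5. Its territory had 2656 and 1246 bp in untreated MiaPaCa2, against 0 and 0 bp in untreated CFPAC1, and 2128 and 2132 bp in treated MiaPaCa2, against 0 and 0 bp in treated CFPAC1. IFITM5 entered the test only through its MiaPaCa2 libraries, so it had to differ between the lines. The limma adjusted p was 3.71e-05 untreated and 3.08e-05 with IFN-β, and groups at 0 add almost no spread to that estimate. The call is one of many, since 34.9% of genes were called higher in untreated MiaPaCa2 and 22.5% lower, and 31.0% and 20.9% with IFN-β. Without centring the untreated split was 3216 higher and 4242 lower, against 5613 and 3622 with it, and the median of all genes was 0.01 without centring and 0.26 with it.

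The MiaPaCa2 peaks at IFITM5 covered the gene and both its sides. All 3 loci of the window that were gained in untreated MiaPaCa2 over untreated CFPAC1, of 26, lay there (chr11:296824-297509, chr11:297684-299024 and chr11:299386-300197), and 0 were lost. Of all loci, 10.3% were gained and 20.9% lost between the untreated lines. The 3 became 6 without the first and 15 without the second untreated MiaPaCa2 library, and 6 without the second untreated CFPAC1 library. With IFN-β, 4 of 28 were gained and 0 lost, where all loci gave 11.7% and 22.7%. The 4 became 11 without the first and 7 without the second treated MiaPaCa2 library, and 8 without the first treated CFPAC1 library. These were a locus over IFITM5 (chr11:296857-299764), the one between IFITM5 and IFITM2 named above, and a pair at the neighbouring genes NLRP6 (chr11:284836-285499) and PGGHG (chr11:289420-291945). NLRP6 encodes an inflammasome sensor, and PGGHG an enzyme that removes glucose from collagen.

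Most of what the nearest-member rule gave to IFITM5 lay nearer to these neighbours. Of its 45 peaks, 31 (68.9%), with 69.8% of the bases, were closer to PGGHG or NLRP6 than to IFITM5. In the 8 CFPAC1 libraries every peak given to IFITM5 was of this kind. The territory of PGGHG had a mean of 3782.0 ± 2008.18 bp in untreated MiaPaCa2 and 945.0 ± 367.7 bp in untreated CFPAC1 (SD, n = 2 each), a fitted difference of 1.76 ± 0.39 (SE, limma adjusted p = 0.00391). For NLRP6 the fitted difference was 1.34 ± 0.52 (SE, limma adjusted p = 0.0512), with 1751 and 0 bp in untreated MiaPaCa2. NLRP6 was at 0 in all 8 CFPAC1 libraries and entered the test only through MiaPaCa2, so its direction was fixed. Higher coverage in MiaPaCa2 was thus seen at PGGHG as well as at IFITM5.

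The interferon-stimulated members differed less between the lines. IFITM1 was called higher in untreated MiaPaCa2, with 4621 and 3546 bp, against 3182 and 3051 bp in untreated CFPAC1 (0.59 ± 0.16, SE, limma adjusted p = 0.0108). Groups did not overlap at IFITM1 and IFITM5, as for 37.4% of all genes in that direction and 36.7% in the other. The IFITM1 call was lost in 6 alternatives, among them no centring (limma adjusted p = 0.156), lists of equal length (limma adjusted p = 0.0521), and leaving out the second untreated CFPAC1 (limma adjusted p = 0.065) or the first untreated MiaPaCa2 library (limma adjusted p = 0.0652). IFITM2 (0.78 ± 0.48, limma adjusted p = 0.185) and IFITM3 (0.57 ± 0.29, limma adjusted p = 0.123) did not pass the test, though IFITM3 did with territories of up to 20 kb on either side (0.81, limma adjusted p = 0.0308).

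With IFN-β the lines differed by 0.29 ± 0.16 for IFITM1, 0.73 ± 0.48 for IFITM2 and 0.54 ± 0.29 for IFITM3 (SE, limma adjusted p 0.147 to 0.224). Only IFITM5 of the 4 was called, and it had to differ because it entered the test through MiaPaCa2 alone. Without the first treated CFPAC1 library IFITM3 was called as well (1.01, limma adjusted p = 0.0157), and in a fit on these 4 libraries alone IFITM2 was (0.74, limma adjusted p = 0.0174). IFITM1 and IFITM2 were higher without overlap in treated MiaPaCa2, as were 38.5% of all genes (34.9% were lower), and IFITM3 overlapped. Over the whole window the covered length was 8463.0 bp higher in untreated MiaPaCa2 than in untreated CFPAC1 and 8483.0 bp higher in treated MiaPaCa2 than in treated CFPAC1 (exact two-sided permutation p = 0.33 each, the smallest possible). The untreated difference was 3242.5 bp without the first and 13683.5 bp without the second untreated MiaPaCa2 library, whereas the treated one ran between 6781 and 10185 bp without single libraries. Much of the window difference lay in peaks assigned to IFITM5, most of them nearer to PGGHG or NLRP6. Their mean was 6608.5 bp in untreated MiaPaCa2 and 945.0 bp in untreated CFPAC1. With IFN-β it was 6226.5 bp in MiaPaCa2 and 373.5 bp in CFPAC1. Peaks covered 63.6 to 78.2 Mb of the genome in the MiaPaCa2 libraries and 75.6 to 94.8 Mb in those of CFPAC1, and these ranges overlap. The cause of the larger covered length of the window in MiaPaCa2 was not tested. Bases of the window held by both untreated MiaPaCa2 and neither untreated CFPAC1 library made up 15.19%, where the genome had 14.8%, and the opposite pattern 0.48%, where the genome had 23.7%. With IFN-β the shares were 23.9% and 0.0%, where the genome had 18.4% and 23.0%.

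WT clones were set against untreated bulk CFPAC1 to see what cloning with the empty vector does. The window had 8920 and 6308 bp in WT clones, against 7150 and 6927 bp in bulk cells, and the groups overlapped (difference 575.5 bp, exact two-sided permutation p = 1.0). It was -730.5 bp without the first WT clone and 1881.5 bp without the second. With limma 0 of the 4 members were called, where 0.00622% of genes were called higher and 0.0124% lower. No member had an unadjusted p under 0.05, which 1005 of the 16070 genes had. None of 15 loci was gained or lost, where 1.54% and 4.5% of all loci were. All 3 covered members overlapped between WT clones and bulk cells, where 14.5% of genes were higher and 16.7% lower without overlap. Of the bases, 3.78% were gained and 0.0% lost, where the genome had 1.9% and 4.33%. The 1 kb before the start of IFITM3 was covered over 136 and 143 bp in WT clones, against 0 and 0 bp in bulk cells. How many of all genes differ in this way over that 1 kb was not computed.

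Other genes of the interferon pathway, from a list of 40 interferon-stimulated genes outside the cluster, included larger differences. After IFN-β, 11 of the 40 were called higher and 0 lower in CFPAC1, where 0.815% of all genes were called higher and 0.249% lower, with a median fitted difference of 0.77 (0.02 over all genes). In MiaPaCa2 20 were called higher and 0 lower, where 0.535% and 0.0622% of all genes were, with a median of 1.19 (0.04 over all genes). RSAD2, which encodes the antiviral enzyme viperin, rose by 3.14 ± 0.34 in CFPAC1 (SE, limma adjusted p = 0.00696) and by 3.11 ± 0.34 in MiaPaCa2 (limma adjusted p = 0.00415). The IFITM1 and IFITM2 differences in CFPAC1 lie near the median of this list and that of IFITM3 above it, whereas in MiaPaCa2 all 3 lie below it. Between knockout and WT clones 0 of the 40 were called by limma. An unadjusted p under 0.05 was found for 5, as for 2331 of the 16070 genes, which is a similar share. The median fitted difference was -0.16 (-0.05 over all genes), and 10 of the 40 were positive. In untreated MiaPaCa2 against untreated CFPAC1, 2 of the 40 were called higher and 23 lower, where 34.9% and 22.5% of all genes were (median -0.74, against 0.26 over all genes), so the higher coverage of IFITM1 in MiaPaCa2 is not the pattern of most of the list.

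Among 20 genes of interferon signalling, 2 were called higher and 0 lower in each line after IFN-β, with SOCS1 and IRF8 called in CFPAC1 and USP18 among those called in MiaPaCa2. Of all genes, 0.815% were called higher and 0.249% lower in CFPAC1, and 0.535% and 0.0622% in MiaPaCa2. The absence of calls after IFN-β in the CD225 and trafficking lists below is near that background. Of the 9 genes of the wider CD225 family outside the cluster, which share the membrane domain of the IFITM proteins, 8 were tested and 0 were called by limma after IFN-β in either line, with 1 in each at an unadjusted p under 0.05. In untreated MiaPaCa2 against untreated CFPAC1, 4 of these 8 were called higher and 1 lower, where 34.9% and 22.5% of all genes were. IFITM10, on the same chromosome but outside the window, was among those called higher (2.62 ± 0.61, SE, limma adjusted p = 0.00545). TMEM233 was the one called lower (-2.83 ± 0.67, SE, limma adjusted p = 0.00581). Of 9 genes linked to IFITM function in trafficking and entry, 0 were called by limma after IFN-β, with 2 in CFPAC1 and 0 in MiaPaCa2 at an unadjusted p under 0.05. Of 8 osteoblast genes, 7 were tested. After IFN-β 0 of them were called in CFPAC1. In MiaPaCa2 1 was called higher (COL1A1, 1.58 ± 0.26, SE, limma adjusted p = 0.0291) and 0 lower. In untreated MiaPaCa2 against untreated CFPAC1 1 was called higher (SP7) and 3 lower (COL1A1, DMP1 and RUNX2), where 34.9% of all genes were called higher and 22.5% lower. With so few genes nothing is read from these counts.

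Finally, the genes whose covered bp ran most like each member over the 12 libraries were looked up among 14720 genes, as a description. IFITM1 was most like VEZF1 (Pearson r = 0.971), C3orf38 (0.965) and IFIT2 (0.965), of which IFIT2 is an interferon-stimulated gene. IFITM3 was most like PHF11 (0.952), ACP5 (0.945) and CFB (0.93), the last encoding complement factor B. IFITM2 was most like CUEDC1 (0.934), SHISA5 (0.914) and PSME1 (0.909), which encodes an interferon-inducible proteasome activator subunit. IFITM5 was most like RFX1 (0.996), PTPN3 (0.992) and C19orf53 (0.992). Within the cluster r was 0.904 between IFITM1 and IFITM3, 0.871 between IFITM1 and IFITM2, 0.828 between IFITM2 and IFITM3, and 0.622 to 0.765 between IFITM5 and the others. The 12 points share 6 groups and 2 lines, so these values mix line and treatment.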

How the data were processed

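H3K27ac ChIP-seq peak lists of 12 libraries in 6 label groups were used. Per the submitters' processing notes, which give no order or role, Trimmomatic 0.38, Bowtie2 2.2.6, SAMtools and MACS2 2.1.0.20150731 were used, with GRCh38. The authors deposited 1 narrowPeak list per library, so replicates were not pooled in them. Each deposited peak carries a fold enrichment (a ratio), a -log10 p and a -log10 q made by the authors for that library. The smallest deposited -log10 q was 1.30 to 1.37 in every list. The control library, the filters, the handling of reads that fit several places and the read depth are not given in the sources used here, so no interval from counts was computed. The deposited score was not used. The labels name 2 sequencing instruments without assigning libraries, so no batch could be tested.

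Only peaks on the autosomes and chromosome X entered. Gene positions are from RefSeq (GRCh38.p14), and 3 of the 4 members had a promoter sequence there. Covered bp per territory were analysed as log2(covered bp + 500), centred on each library's mean, for 16070 of 19974 protein-coding genes covered in at least 2 libraries. IFITM5 met that filter through MiaPaCa2 alone. One limma 3.58.1 model (R 4.3.3, trended prior, 6 residual degrees of freedom) held all 6 groups, with two-sided tests and Benjamini-Hochberg adjustment over all genes per comparison. It was tested on simulated data. A group at 0 adds almost no spread. The lone clones share this spread estimate with bulk libraries. Loci are peaks of the 4 libraries of a comparison merged at 1 bp of overlap. Python 3.11.15 with numpy 2.4.6, pandas 2.3.3 and scipy 1.17.1 was used. The members and gene lists were chosen with earlier results of these data known. The rule named all 4 members, the protein-coding genes within 20 kb, the 3 genes most like each member over 1 Mb away, and the called genes of each list with the largest fitted differences, at most 4 per list and comparison, of which only some are printed. Results for some listed genes, and for another motif that was searched, are not reported here.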

Additional observations from a re-analysis of the deposited data

How the results depend on the processing

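Alternatives were another pseudocount, no centring, quantile normalization, stricter peaks (-log10 q of at least 5), equal peak numbers (each list cut to its strongest 59896), other territories, other flanks, a fit on the libraries of a comparison alone, a replicate block, and each library left out. A window of 1 kb either side of the annotated start, and loci without each library, were chosen after seeing the data. After IFN-β no member was called under any of them in either line, and IFITM1, IFITM2 and IFITM3 kept a positive difference; the limma adjusted p of IFITM3 in CFPAC1 ran between 0.0548 and 0.648.

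The number of members called between the untreated lines was 1 instead of 2 without centring, with equal peak numbers, with 5 kb either side of the better covered gene end, with 1 kb either side of the start, and in 2 of the fits without a library, where it ran between 1 and 2, and 3 with 20 kb flanks. With IFN-β it was 2 instead of 1 on the libraries of that comparison alone, and ran between 1 and 2 without single libraries. Each of these counts includes IFITM5, which had to differ between the lines. The window difference between the treated lines was 4582.5 bp with flanks of 5 kb, 13287 bp with flanks of 50 kb and 10699 bp after scaling to equal totals. That between the untreated lines was 5007.5 bp and 13243.5 bp with these flanks. For the knockout it was -276 and -490.5 bp with these flanks, and for WT clones against bulk cells it lay between 371 and 1187.6 bp. Loci gained after IFN-β in CFPAC1 numbered 2 with stricter peaks and 2 with equal peak numbers, in MiaPaCa2 1 with stricter peaks, between untreated lines 5 with equal peak numbers, and between treated lines 2 with stricter peaks.

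Fitted differences that changed sign are given next, and the cause was not tested. For IFITM2 in the knockout comparison the fit was 0.64 with stricter peaks and 0.22 with equal peak numbers. For IFITM1 between treated lines it was -0.058 with 1 kb either side of the start. For the difference of IFN-β responses, IFITM2 had 0.017 with a pseudocount of 2000, 0.010 without centring, 0.051 with quantile normalization and 0.065 with stricter peaks, IFITM3 had 0.014 with a pseudocount of 2000, 0.033 without centring and 0.07 with the gene end window, and IFITM5 had -0.10 with the gene end window.

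Leaving out each library in turn, the window difference ran between 2169.5 and 5573.5 bp for IFN-β in CFPAC1, between -1329 and 9112 bp in MiaPaCa2, between 3242.5 and 13683.5 bp for the untreated lines, between -2308 and 347 bp for the knockout and between -730.5 and 1881.5 bp for WT clones against bulk cells. Gained loci ran between 1 and 8 for IFN-β in CFPAC1 (lost 0 to 1), 3 and 10 in MiaPaCa2 (lost 0 to 6), 0 and 2 for the knockout (lost 0 to 1), 3 and 15 between untreated lines (lost 0 to 1), 4 and 11 between treated lines (lost 0 to 1), and 0 and 2 for WT clones against bulk cells (lost 0 to 2). The fit for IFITM5 after IFN-β in MiaPaCa2 ran between -0.12 and 0.65, that for IFITM2 in the knockout between -0.87 and 0.45, and the difference of responses between -0.51 and 0.41 for IFITM2, -0.50 and 0.45 for IFITM3 and -0.28 and 0.49 for IFITM5. Peak lists with no read counts limit all of these to how far peaks extend.

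The labels do not say whether same-numbered libraries share a culture or batch, and 2 libraries per group cannot settle it. The correlation of same-numbered deviations was 0.246 in CFPAC1, -0.049 in MiaPaCa2 and -0.104 in the clones. With a replicate block the number of genes called was 14 instead of 171 after IFN-β in CFPAC1, 42 instead of 96 in MiaPaCa2 and 0 instead of 199 between clones. The members called were as many as without the block in all 7 comparisons, for instance 2 between the untreated lines and 0 for the knockout.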
